A study of Mus musculus with 6 samples.

Results

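A set of 10 genes of megakaryocytes and platelets were followed in bone marrow progenitors with and without the Srsf2 P95H mutation: Pf4, Ppbp, Vwf, Itga2b, Itgb3, Gp1ba, Gp1bb, Gp5, Gp6 and Gp9. They were taken by symbol from the deposited table of raw counts, in which all 10 were found among 26027 genes. Of these 10, 9 passed the filter on low counts and were tested, and Gp6 was not. RNA came from cells that lacked lineage markers, carried cKit and expressed eYFP, sorted from the marrow of C57BL/6 mice after tamoxifen. Both groups carried hScl-CreERT, a tamoxifen-inducible Cre named for the haematopoietic Scl gene, and R26eYFP, a reporter that is switched on in recombined cells. The Srsf2 P95H/+ group (3 libraries) has 1 mutant allele of this splicing factor, and the Srsf2 +/+ group, called wild type here, has none (3 libraries). Wild-type replicate 1 was a female of 54 weeks and all other libraries came from mice of 32 weeks. Females also gave P95H/+ replicates 1 and 2, while males gave P95H/+ replicate 3 and wild-type replicates 2 and 3. The labels do not say whether each library was 1 mouse. The p-values measure the spread between these libraries, which may be partly technical and also holds the differences in sex and age within each group.

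Megakaryocytes are large polyploid cells of the marrow that shed platelets, and they arise from stem cells and from progenitors shared with the erythroid lineage. Itga2b (CD41) and Vwf are switched on early, already in some stem cells, while the collagen receptor belongs to maturing megakaryocytes and platelets. On the platelet surface, the GPIb-IX-V complex catches von Willebrand factor, GPVI binds collagen, and the integrin of Itga2b and Itgb3 then binds fibrinogen.

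Library totals ran from 10747941 counts in P95H/+ replicate 3 to 23010510 in wild-type replicate 1, and the 10 genes together took 4642 to 7359 counts per library. The replicate 3 libraries differed from the remaining 4 by base composition. Above 55% transcript GC, genes had a median log2 difference from those 4 of 0.762 in P95H/+ replicate 3 and 0.475 in its wild-type counterpart. At 40% GC or less the medians were -1.13 and -0.884. Levels are given as CPM, the count of a gene over the total of its library, scaled to 1e6 counts. For Srsf2 itself the wild-type mean was 332 ± 9.79 CPM and the P95H/+ mean 331 ± 14.2 (SD, n = 3), and a count per gene does not show the base change.

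The promoters of 4 of the genes are shown: Gp1ba, the 1 gene whose genotypes did not overlap, its complex partners Gp5 and Gp9, and Pf4, the 1 gene that was lowest in P95H/+ replicate 3. Each is the RefSeq sequence (GRCm38.p6) of the 250 bases before the gene's start, 5′ to 3′ on the gene's strand. Gp1ba is chr11:70638872-70639121 (plus), Gp5 chr16:30310782-30311031 (minus), Gp9 chr6:87777820-87778069 (plus) and Pf4 chr5:90772185-90772434 (plus). Capitals mark matches, on either strand, to letters of 3 factor families of megakaryocyte genes: GATA, ETS and RUNX. For the GATA family the letters searched were AGATAA, where a thymine was also taken in the opening place and a guanine in the closing place. For the ETS family the letters searched in the same windows were AGGAAG. For the RUNX family of factors the letters searched in these windows were TGTGGT. No match overlapped another in the printed promoters.
Gp1ba: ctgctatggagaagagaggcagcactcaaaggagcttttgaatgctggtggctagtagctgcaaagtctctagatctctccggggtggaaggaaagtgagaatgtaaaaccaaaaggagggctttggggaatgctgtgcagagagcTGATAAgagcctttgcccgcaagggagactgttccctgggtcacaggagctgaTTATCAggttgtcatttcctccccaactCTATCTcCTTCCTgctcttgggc
Gp5: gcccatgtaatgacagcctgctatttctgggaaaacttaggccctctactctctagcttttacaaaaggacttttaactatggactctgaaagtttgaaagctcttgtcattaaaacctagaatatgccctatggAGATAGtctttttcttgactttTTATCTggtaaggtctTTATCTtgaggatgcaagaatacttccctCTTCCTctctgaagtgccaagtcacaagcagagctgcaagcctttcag
Gp9: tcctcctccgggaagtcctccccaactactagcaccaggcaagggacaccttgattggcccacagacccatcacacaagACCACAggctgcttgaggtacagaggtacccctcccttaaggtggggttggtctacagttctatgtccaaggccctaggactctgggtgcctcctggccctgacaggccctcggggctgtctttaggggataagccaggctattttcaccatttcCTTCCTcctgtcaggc
Pf4: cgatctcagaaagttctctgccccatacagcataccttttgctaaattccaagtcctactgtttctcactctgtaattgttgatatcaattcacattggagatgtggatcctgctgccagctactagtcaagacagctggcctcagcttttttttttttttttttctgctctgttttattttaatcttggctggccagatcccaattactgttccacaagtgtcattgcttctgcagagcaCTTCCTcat
RefSeq promoters were found for 8 of the 10 genes. The ETS letters were in 5 of these 8 (Pf4, Itga2b, Gp1ba, Gp5 and Gp9), against 29.6% of 32536 promoter windows of the same length. GATA letters were in 4 of 8 (Gp1ba, Gp1bb, Gp5 and Gp6), against 26.5% of windows, and RUNX letters in 1 (Gp9), against 14%. Among the printed promoters, the ETS match began 16 bases before the start in both Gp1ba and Gp9, 48 in Gp5 and 9 in Pf4. Gp1ba and Gp5 each held 3 GATA matches, and Gp9 and Pf4 held none. These matches are letters in a window and do not show binding.

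How strongly each gene was expressed was compared per kilobase of exon, since transcripts differ in length. Pf4 was highest, at a mean of 37.2 CPM per kb over the 6 libraries (27.6 to 44.5), followed by Itga2b at 22.8 (14.3 to 37.0). Pf4 lay above Itga2b in 5 of 6 libraries, so the order of these neighbours was not the same everywhere. Gp9 (8.35), Gp5 (8.01) and Itgb3 (7.52 CPM per kb) came next and could not be ordered, as Gp9 exceeded Gp5 in 4 libraries and Gp5 exceeded Itgb3 in 2. Vwf followed at 4.71, Gp1ba at 3.17 and Gp1bb at 1.93 CPM per kb. The Gp1bb level may be partial or mixed, since Sept5 shares most of its exon bases, so its place in the order is uncertain. Vwf has 16064 bases of merged exons but a longest transcript of 8834, and by the longest transcript it stood between Itga2b and Gp9, at 8.57 CPM per kb. Ppbp was far lower at 0.651 CPM per kb and lay below Gp1bb in 6 of 6 libraries. Gp6 was lowest, with 8 counts in all 6 libraries together. In a wider list of 46 genes of the lineage, levels ran from 0.053 CPM per kb for Myl9, a myosin light chain gene, to 252 for Srgn, a granule proteoglycan gene, with Tubb1, the platelet beta-tubulin, at 0.298 and Nbeal2, needed for alpha granules, at 19.9. For scale, the progenitor marker Cd34 stood at 48.5 and the neutrophil enzyme gene Mpo at 1481 CPM per kb.

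**Figure D1:**
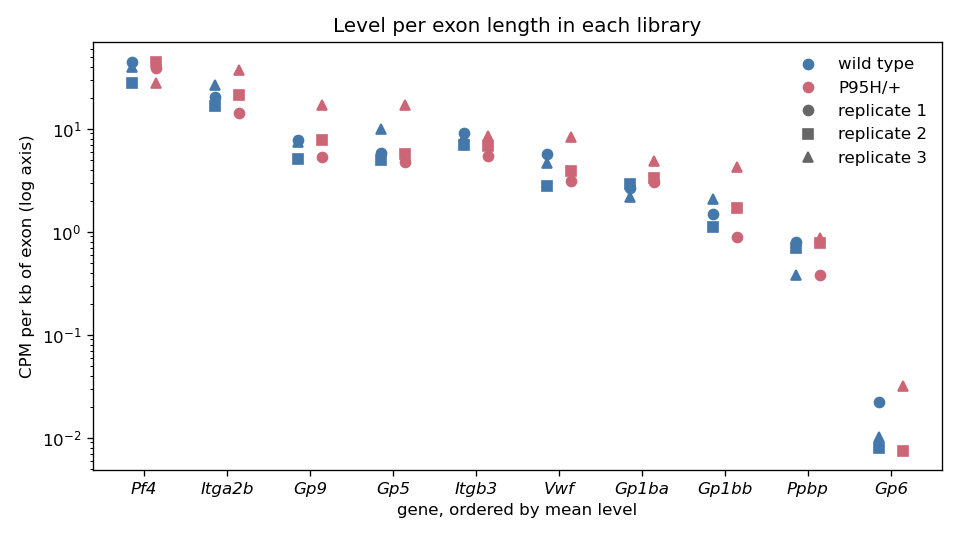
CPM per kilobase of merged exon (log axis) for the 10 genes in each library, ordered by their mean over 6 libraries (blue wild type, red P95H/+; circle, square and triangle for replicates 1, 2 and 3). Pf4 and Itga2b lie at the top, Ppbp below 1 in all libraries, and Gp6 lowest; its library with a count of 0 is not drawn.

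Comparing P95H/+ with wild type asks whether progenitors with 1 mutant Srsf2 allele carry more or less of these transcripts. None of the 9 tested genes passed: with all 6 libraries, the quasi-likelihood test of edgeR gave each an adjusted p of 1 (Benjamini-Hochberg over 17144 genes, threshold 0.05). The same test called 0% of all genes, with 2.11% of them at an unadjusted p under 0.05. No gene of the 9 was under 0.05 unadjusted in this fit, in limma voom or in voom with sample quality weights, and 1, Gp1ba, was with DESeq2. None of the 9 was called after adjustment in any other fit either, where the share of all genes called was 0.0467% with DESeq2, 0.566% with voom and quality weights, 0.00583% with the replicate number as a block (with or without GC correction), 0.00567% without wild-type replicate 3 and 0.829% without replicate 3 of both genotypes. Positive log2 fold changes were seen in 8 of 9, against 53.1% of all tested genes, and the median was 0.31 against 0.02. P95H/+ replicate 3 was the highest library for 8 of the 10 genes, against 23.9% of tested genes, and the lowest for 1, Pf4, against 35.4%. P95H/+ replicate 1 was lowest for 6, against 21%, and wild-type replicate 1 highest for 2, Pf4 and Itgb3, against 22.7%. Leaving out P95H/+ replicate 3 left 3 of 9 positive with a median of -0.20. Leaving out replicate 3 of both genotypes left 4 of 9, against 49.6% of all genes. In bulk RNA, fewer cells of a type and less RNA per cell cannot be told apart.

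**Figure D2:**
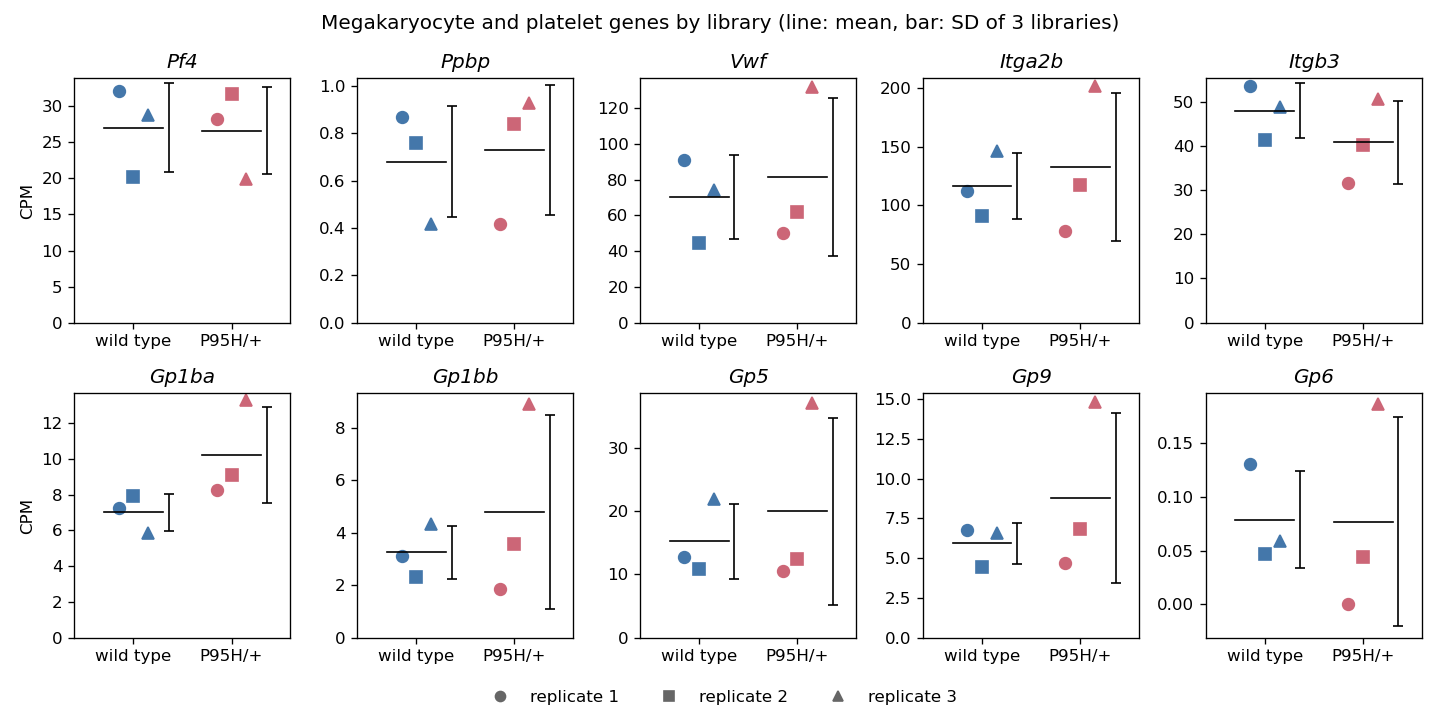
CPM of each gene in the 3 wild-type (blue) and 3 P95H/+ (red) libraries, with the mean as a line and the SD as a bar beside the points, replicates 1, 2 and 3 as circle, square and triangle. Gp1ba is the gene whose groups do not overlap (5.88 to 7.91 against 8.26 to 13.3), and P95H/+ replicate 3 is the highest point for 8 of 10 genes.

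Itga2b, which encodes the alpha chain of the fibrinogen receptor and is the classic surface mark of the lineage (CD41), stood at 112, 91.2 and 146 CPM in wild-type replicates 1, 2 and 3. In P95H/+ replicates 1, 2 and 3 it stood at 78.3, 117 and 202 CPM. The groups overlapped, with both the lowest and the highest library in P95H/+. Its log2 fold change was 0.27 (SE 0.37). Itgb3, the beta chain of the same receptor, was at 53.7, 41.3 and 48.8 CPM in wild type and 31.7, 40.3 and 50.5 CPM in P95H/+. It was the 1 tested gene with a negative log2 fold change, -0.15 (SE 0.24), again with overlapping groups. Without replicate 3 of both genotypes its value was -0.37 (SE 0.15), at an unadjusted p of 0.0365 and an adjusted p of 0.291 in edgeR. In that comparison 15.6% of all genes had an unadjusted p under 0.05, and 9.44% had one and were lower in P95H/+. The alpha chain there was at -0.029 (SE 0.21). The difference between the chains was not tested.

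The GPIb-IX-V complex is made of the products of Gp1ba, which binds von Willebrand factor, Gp1bb, Gp9 and Gp5, and loss of any of the first 3 causes Bernard-Soulier syndrome in humans. Gp1ba was at 7.26, 7.91 and 5.88 CPM in wild type and 8.26, 9.11 and 13.3 CPM in P95H/+. Every P95H/+ library lay above every wild-type library. Such a separation with P95H/+ higher held for 1.91% of tested genes, and in either direction for 7.84%. Gp1ba had the smallest p of the 9 genes, with a log2 fold change of 0.61 (SE 0.29) and an unadjusted p of 0.0668, which did not pass. With 3 libraries a group, the smallest two-sided p of an exact permutation test is 0.1. Its fold change was positive in each fit, from 0.23 without replicate 3 of both genotypes to 0.73 without P95H/+ replicate 1. Unadjusted p-values were under 0.05 with DESeq2 (0.0458) and, in edgeR, with sex (0.0363), GC correction (0.0352) and GC correction plus the block (0.0406). The shares of all genes under 0.05 in those fits were 1.94%, 5.06%, 4.09% and 6.43%. In every other fit the p of Gp1ba was above 0.05. It was 0.0566 in edgeR with the block alone and 0.109 in voom with quality weights. In edgeR it was 0.158 without P95H/+ replicate 3 and 0.215 without replicate 3 of both genotypes.

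The other chains of the complex were also highest in P95H/+ replicate 3. Gp1bb stood at 3.13, 2.32 and 4.33 CPM in wild type and 1.85, 3.58 and 8.93 CPM in P95H/+. Gp9 stood at 6.78, 4.45 and 6.59 CPM in wild type and 4.66, 6.85 and 14.8 CPM in P95H/+. Gp1bb was lowest in P95H/+ replicate 1 and Gp9 in wild-type replicate 2, and both were highest in P95H/+ replicate 3. Gp5, the subunit that is not needed for the complex to reach the surface, stood at 12.8, 10.9 and 22.0 CPM in wild type and 10.5, 12.4 and 37.0 CPM in P95H/+. Its lowest library was P95H/+ replicate 1, its next to highest wild-type replicate 3, and the genotypes overlapped. Log2 fold changes were 0.62 (SE 0.57) for Gp1bb, 0.64 (SE 0.45) for Gp9 and 0.49 (SE 0.54) for Gp5. Without P95H/+ replicate 3 they were -0.20 for Gp1bb, 0.0087 for Gp9 and -0.35 for Gp5. Exons of Sept5 on the same strand cover 91.1% of the exon bases of Gp1bb, and those of Gm49601, which has no row in the counts, cover 41.5%. How reads in shared bases were assigned is not given, so the Gp1bb counts may be partial or mixed. Sept5 stood at 4.43, 2.99 and 9.74 CPM in wild-type libraries and 4.94, 2.21 and 12.6 CPM in P95H/+, highest in the same P95H/+ replicate 3.

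Vwf encodes von Willebrand factor, the adhesive ligand of that complex, made by megakaryocytes, endothelium and a platelet-biased class of stem cells. It stood at 91.2, 44.8 and 74.2 CPM in wild type and 50.3, 61.7 and 132 CPM in P95H/+. Groups overlapped, and within wild type the 54-week library was highest. The log2 fold change was 0.31 (SE 0.43), and it was -0.27 (SE 0.30) without P95H/+ replicate 3. Endothelial genes were looked at beside it: the summed level of 10 markers was 178 to 224.5 CPM in wild type and 168 to 210 CPM in P95H/+. Most of this was Pecam1, at 130 and 125 CPM, which blood progenitors also express. Tie1 followed, at 44.5 and 42.7 CPM. In wild type and P95H/+, Tek was at 9.83 and 10.2 CPM, Robo4 at 8.92 and 5.62, Plvap at 3.91 and 5.86, and Emcn at 2.72 and 3.26. Kdr was at 1.69 and 1.38 CPM, Stab2 at 1.16 and 0.975, and Cldn5 at 0.282 and 0.182. Cdh5, an endothelial cadherin, was among the lowest of the 10, at 0.283 ± 0.282 and 0.0752 ± 0.0681 CPM (SD, n = 3). Which cells the Vwf transcripts came from was not tested. Of the 10 markers, 0 was without counts in all libraries.

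Pf4 and Ppbp encode CXC chemokines of platelet alpha granules and lie next to each other on chromosome 5. Pf4 was at 32.1, 20.1 and 28.9 CPM in wild type and 28.2, 31.7 and 19.9 CPM in P95H/+. The groups covered the same range, and P95H/+ replicate 3, highest for 8 of the other 9 genes, was the lowest library here. Its log2 fold change was 0.05 (SE 0.26), and its sign was not stable: it was -0.021 with scaling by library totals, -0.11 with sex in the model and -0.11 without wild-type replicate 2. Ppbp was at 0.869, 0.758 and 0.416 CPM in wild type and 0.415, 0.84 and 0.93 CPM in P95H/+. These values rest on 7 to 20 counts per library, and the log2 fold change of 0.10 (SE 0.45) is correspondingly wide. Gp6, the collagen receptor that signals through Fcer1g, had 3, 1 and 1 counts in wild type and 0, 1 and 2 counts in P95H/+. A count of 0 in P95H/+ replicate 1 allows up to 0.138 CPM, by 3 counts, so no difference was detectable at this depth. Fcer1g, expressed in many myeloid cells, was at 50.3 and 45.9 CPM.

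**Figure D3:**
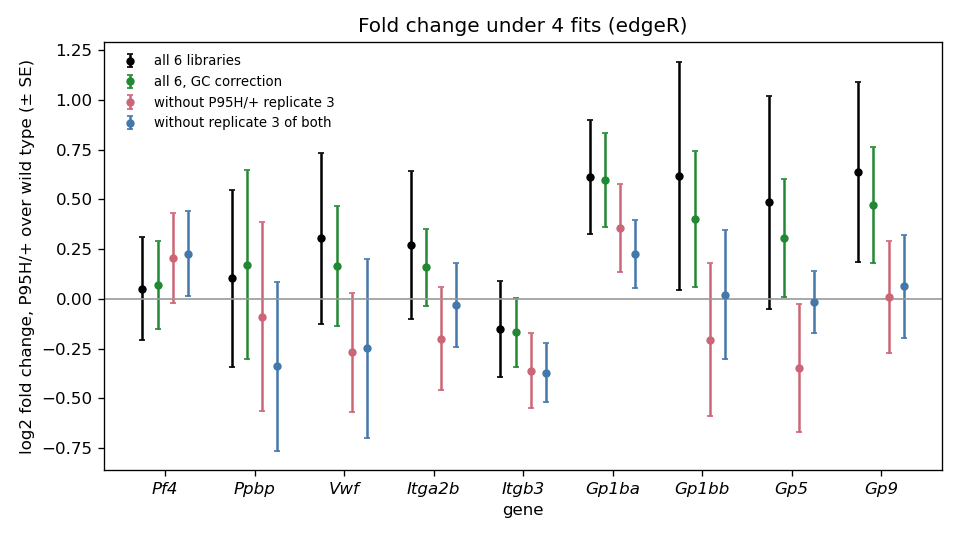
Log2 fold change of P95H/+ over wild type with its SE for the 9 tested genes in 4 edgeR fits. With all libraries, before (black) and after GC correction (green), 8 of 9 values are above 0; without P95H/+ replicate 3 (red) 3 of 9 are, and without replicate 3 of both genotypes (blue) 4 of 9 are, while Gp1ba stays above 0 and Itgb3 below 0 in all 4.

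The libraries of replicate 3 set much of the spread, so the genes were placed by the GC content of their longest transcript. The 5 genes above 55% GC (Vwf, Itga2b, Gp9, Gp5 and Gp1bb, 56.5% to 62.0%) exceeded the mean of the other 4 libraries in P95H/+ replicate 3 by 1.12 to 1.85 on the log2 scale. In wild-type replicate 3 the same 5 were higher by 0.19 to 0.86. Of the 4 genes with less GC, Pf4 (50%) was at 0.01 in wild-type and -0.38 in P95H/+ replicate 3, and Itgb3 (52.1%) at 0.20 and 0.39. Gp1ba (51.6%) went opposite ways, at -0.52 and 0.80, as did Ppbp (42.4%), at -0.79 and 0.51. After a smooth GC trend was removed from each library, the 5 genes lay between 0.43 and 0.99 in P95H/+ replicate 3 and between -0.25 and 0.39 in wild-type replicate 3. Gp1ba was then at 0.64 in P95H/+ and -0.61 in wild-type replicate 3. Corrected values also carry a prior count of 2, which the uncorrected ones lack, so at few counts their change is not the GC trend alone. Ppbp, on few counts, reached 1.17 in P95H/+ replicate 3 after the correction, the highest of the 9, and -0.067 in wild-type replicate 3. Their fold changes between genotypes were then 0.16 for Vwf and Itga2b, 0.47 for Gp9, 0.31 for Gp5, 0.40 for Gp1bb and 0.60 for Gp1ba, and the smallest adjusted p of the 9 was 1.

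**Figure D4:**
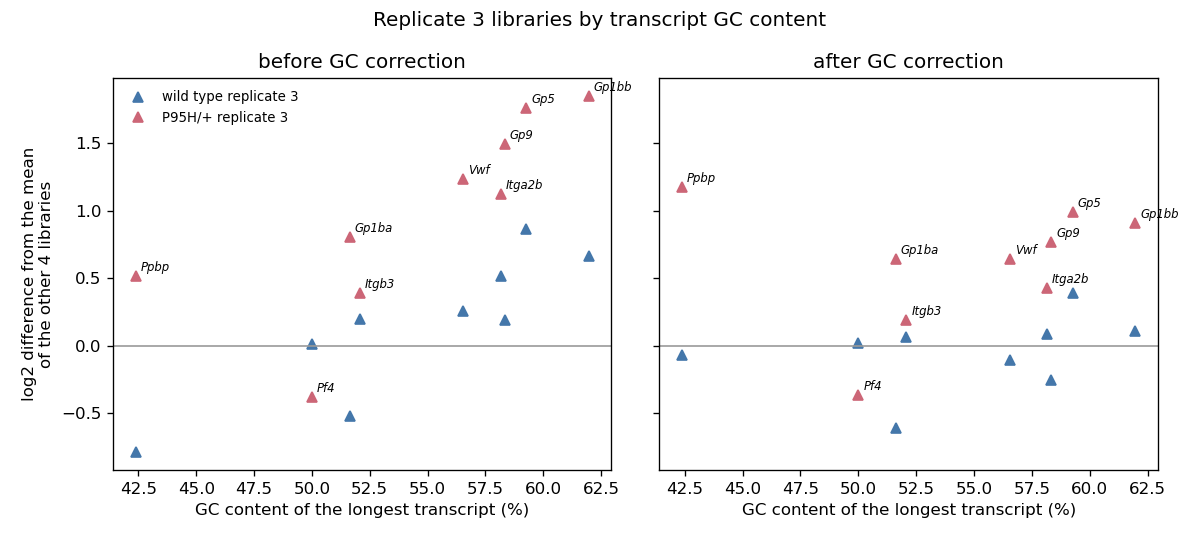
Log2 difference of each replicate 3 library from the mean of the other 4 libraries (y axis) against transcript GC content (x axis) for 9 genes, before (left) and after (right) the GC correction. Values on the right also carry a prior count of 2, which those on the left lack. In P95H/+ replicate 3 (red, labelled) the GC-rich genes reach 1.85 before and 0.99 after correction; Pf4 lies below 0 in both panels.

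Within the replicate numbers, which the labels do not give as pairs, the differences between genotypes were not alike. The replicate 1 libraries also differed in age and the replicate 2 libraries in sex. For the pair of replicate 1 libraries, P95H/+ was below wild type for 8 of the 9 genes, with Vwf at -0.78 and Gp1bb at -0.68 on the log2 scale and Gp1ba alone positive, at 0.27. In the replicate 2 pair it was above for 8 of 9, with Itgb3 at -0.04 as the exception. For replicate 3, again 8 of 9 were above, with Gp1ba at 1.32, Gp9 at 1.31 and Gp1bb at 1.19, and Pf4 at -0.39. Gp1ba was the 1 gene with P95H/+ above wild type in all 3 pairs, by 0.27, 0.20 and 1.32. Its groups did not overlap, so any pairing of the libraries would give this order, and it adds nothing beyond that separation. The share of all tested genes above or below in each pair was not counted, so no reading is drawn from these counts. With the replicate number as a block the calls for the 9 genes were the same as without it.

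Markers of related cells moved with the same library. The summed level of 18 erythroid markers was 3193 CPM in P95H/+ replicate 3 against 1323 to 2280 CPM in the other 5 libraries. The sum of 14 stem cell markers was lowest there, at 546 CPM, against 560 to 834 CPM. None of the 18 and 14 was without counts in all libraries. No marker of these lists passed the test. Of the erythroid markers 16 of 18 were positive with a median log2 fold change of 0.27, of the stem cell markers 12 of the 13 tested were negative with a median of -0.37, and of the neutrophil markers 12 of 12 were positive with a median of 0.29. Without replicate 3 of both genotypes, erythroid markers were 9 positive and 9 negative (median 0.027, 1 called), stem cell markers 13 of 13 negative (median -0.59, 0 called) and neutrophil markers 7 of 12 positive (median 0.11, 0 called). Their part in the values of the platelet genes was not tested.

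Other genes of the lineage came from 3 lists. Of 46 further megakaryocyte and platelet genes 42 were tested, and 0 passed in either direction, with 21 positive, 21 negative and a median of 0.00042. F5, coagulation factor V, was the 1 gene at an unadjusted p under 0.05. It stood at 24.3, 17.5 and 14.0 CPM in wild type and 28.9, 21.7 and 36.7 CPM in P95H/+, a log2 fold change of 0.72 (SE 0.31, adjusted p 1). The groups overlapped. Ctla2a, a protease inhibitor gene with close paralogs, was at 97.7 ± 53.5 CPM in wild type and 44.5 ± 24.6 CPM in P95H/+ (SD, n = 3 each). Its libraries were at 148, 104 and 41.3 CPM in wild type and 55.7, 61.6 and 16.3 CPM in P95H/+, so the groups overlapped. The log2 fold change was -1.07 (SE 0.58), at an unadjusted p of 0.106 in edgeR.

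Of 23 transcription factors of the lineage all were tested and 0 passed, with 13 positive and a median of 0.0031. Mafk, a small Maf partner of the megakaryocyte factor Nfe2, was at 83.0, 83.5 and 83.4 CPM in wild type and 53.8, 65.1 and 72.0 CPM in P95H/+. Its groups did not overlap, as for 2 of the 23 genes against 7.84% of all tested genes, and the log2 fold change was -0.31 (SE 0.20). Ldb1, a bridge protein of GATA and Tal1 complexes, stood at 178, 178 and 199 CPM in wild type and 181, 179 and 350.4 CPM in P95H/+. P95H/+ replicate 3 was the highest, and the other 5 libraries lay between 178 and 199 CPM.

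Thrombopoietin, signalling through the kinase Jak2, drives the lineage, and of 15 genes of this pathway 0 passed, with 9 positive and a median of 0.04. Socs3, a feedback inhibitor of cytokine receptors, stood at 41.6, 27.4 and 15.6 CPM in wild type and 11.1, 13.4 and 20.004 CPM in P95H/+. Groups overlapped through the replicate 3 libraries, and the log2 fold change was -0.85 (SE 0.41). Without replicate 3 of both genotypes it was -1.46 (SE 0.21) and passed edgeR's test (adjusted p 0.0385), in a fit that called 0.829% of all genes and 0 of the 9 platelet genes.

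How alike the genes were across libraries was measured as the root mean square difference of their centred log2 CPM over the 6 libraries, for the 8 genes with a mean of at least 2 CPM. The closest pairs were Gp1bb and Gp9 (0.16), Itga2b and Gp1bb (0.16) and Gp1bb and Gp5 (0.18), and the farthest was Pf4 and Gp5 (0.78). Each of these closest pairs includes Gp1bb, whose counts may be partial or mixed with those of Sept5. The alpha and beta chains of the fibrinogen receptor differed by 0.31, and Gp1ba differed from its partner Gp1bb by 0.47. Among the 11410 other genes compared, Fam219a (0.05), Hrh2 (0.07), Gper1 (0.07), Lzts2 (0.08) and Slc2a3 (0.08) lay nearest to the mean profile of the 8. The nearest of so many genes are close by selection, and no typical difference is given beside them. Each of these 5 was highest in P95H/+ replicate 3, and 4 were lowest in P95H/+ replicate 1, while Gper1 was lowest in wild-type replicate 2. Transcript GC of these 5, in the order first named, was 57.5%, 49.5%, 56.4%, 63.1% and 47.4%. Points of such a profile share the depth and the GC trend of each library. The part of either in the likeness was not tested.

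On mm10, with GENCODE M21 gene models, all 10 genes are protein coding. Pf4 lies on chromosome 5 at 90772435 to 90773383 and Ppbp at 90768518 to 90770063. Vwf and Gp9 lie on chromosome 6, at 125546774 to 125686679 and 87778072 to 87779768. Chromosome 11 holds Itga2b at 102453297 to 102470122, Itgb3 at 104608000 to 104670476 and Gp1ba at 70639122 to 70642036. Gp1bb and Gp5 are on chromosome 16, at 18620317 to 18622403 and 30307685 to 30310779, and Gp6 on chromosome 7 at 4363965 to 4397744. Apart from Gp1bb, 0 exon bases of these genes were shared with another annotated gene on either strand.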

How the data were processed

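Total RNA of sorted progenitors was depleted of ribosomal RNA and made into libraries with a stranded kit, per the labels. The submitters' processing notes name featureCounts (Subread 1.5.1), STAR 2.5.3a, limma, edgeR, Picard 1.96, cutadapt and Trim Galore, with mm10; settings, and whether counting used strand, are not given in the sources used here. The authors deposited raw counts for 26027 genes and CPM tables, 1 of them filtered to 15466 genes. The deposited CPM equalled the count over the library's total of the genes in the same table, within 5e-04. All results start from the counts, with 10747941 to 23010510 counts per library. Symbols of 20 genes were replaced from GENCODE M21.

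Genotypes were compared in all 6 libraries with edgeR 4.0.16 (R 4.3.3): TMM scaling, filterByExpr, robust quasi-likelihood F test, two-sided, Benjamini-Hochberg over 17144 genes, threshold 0.05. The SE follows from the F statistic. The script was tested on simulated counts. Other settings used DESeq2 1.42.0, limma 3.58.1 (voom, with and without quality weights), other scalings, no filter, sex, the replicate number as a block, GC correction (a spline with 4 degrees of freedom per library) and left-out libraries. Deviations of same-numbered libraries from their group means correlated by 0.372, 0.348 and 0.613. Wild-type replicate 1 with P95H/+ replicate 2 gave 0.463, and wild-type replicate 2 with P95H/+ replicate 1 gave 0.386. These values set replicate 3 of both genotypes apart but did not single out pairs among replicates 1 and 2. The labels state no pairing. Members, lists and settings were chosen with earlier results of these data known. Named are all members, in each list the 2 genes with the smallest p when none passed, and in marker lists the 2 highest. Sept5, Cdh5, Fcer1g, Tubb1, Nbeal2, Myl9 and Srgn were named after their values were seen. So were the endothelial markers Tek, Robo4, Plvap, Emcn, Kdr, Stab2 and Cldn5. A gene that the rule names is not reported here.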

Additional observations from a re-analysis of the deposited data

How the results depend on the processing

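Adjusted p-values of the 9 tested platelet genes stayed above 0.05 in each setting run, the lowest being 0.291 for Itgb3 without replicate 3 of both genotypes. Over all genes, edgeR called 0, DESeq2 8, voom with sample quality weights 97, the replicate block 1, the replicate block with GC correction 1, and the fit without replicate 3 of both genotypes 144, in which 0 of the 9 were called; leaving out 1 library at a time gave 0 to 1. The count of positive fold changes, 8 of 9, was 3 to 8 with 1 library left out (3 without P95H/+ replicate 3) and 4 without replicate 3 of both genotypes. The number of non-overlapping genes, 1, was 1 to 2 with 1 library left out. With all libraries, 7.84% of tested genes did not overlap. That share was not counted with a library left out, where groups separate more easily, so no reading is drawn from the range.

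Signs turned for Pf4 with total-count scaling (-0.021) and with sex in the model (-0.11), for Ppbp with quality weights (-0.15) and for Srsf2 with total-count scaling (-0.0061). Without replicate 3 of both genotypes they turned for Ppbp (-0.34), Vwf (-0.25), Itga2b (-0.029) and Gp5 (-0.015). With 1 library left out, log2 fold changes ranged from -0.11 to 0.20 for Pf4, -0.14 to 0.41 for Ppbp, -0.27 to 0.54 for Vwf, -0.20 to 0.52 for Itga2b, -0.20 to 0.99 for Gp1bb and -0.35 to 0.83 for Gp5. Gp1ba (0.36 to 0.73), Gp9 (0.0087 to 0.93) and Itgb3 (-0.36 to -0.016) kept their sign. The median of the transcription factor list ranged from -0.13 to 0.090 with 1 library left out, the lower without P95H/+ replicate 3. Without replicate 3 of both genotypes the median of the further megakaryocyte genes was -0.19, and 1 gene of the thrombopoietin list, Socs3, was called (-1.46). The cause of these changes was not tested. Depth limits Ppbp and Gp6 most, with 81 and 8 counts in all.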
